A study of Mus musculus with 20 samples.

Results

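Interferon-induced genes are the genes that cells switch on when an interferon binds its receptor. The group described here holds 32 such genes, out of 18162 genes that have a probe set of their own on the array. These 32 are listed by symbol and by no measured value, but were chosen with earlier results of these data known. They were measured in visceral fat of 20 female C57BL/6J mice, 1 array per mouse, and 30 of the 32 had at least 1 probe set that names no other gene, 45 probe sets in all. Each gene is given by its probe set with the highest mean over the 20 arrays.

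The mice fall into 4 groups of 5. Control non pregnant and control pregnant mice had the low fat diet, which the labels give as 10% fat, and HF non pregnant and HF pregnant mice had the high fat diet, given as 58% fat; the methods count fat as a share of calories. Pregnant mice were taken late in gestation, at E18.5; the labels give E18.5 for the non pregnant mice as well. All groups share the strain, the labels name no altered gene and no drug, and the HF diet is a model of diet-induced obesity. The comparisons ask how fat tissue of obese and lean mice differs in late pregnancy and outside it. A legend of the study calls the array samples mesenteric, where its methods and the labels say visceral. The methods count gonadal and mesenteric fat as visceral, and visible lymph nodes were removed from it. Values are log2 of the deposited intensity, so that a difference of 1 is a doubling. The tissue carried markers of fat at high levels, where array medians were intensities of 60.69 to 64.73. Adipoq, which encodes adiponectin, lay between 13.81 and 14.59 on the log2 scale and Fabp4, the fatty acid carrier of adipocytes, between 14.34 and 14.87. Other adipocyte markers lay lower and varied more, such as Lep, which encodes leptin, from 7.35 to 11.92. Control pregnant mouse 2 and control non pregnant mouse 4 also carried pancreatic acinar genes. Their mean log2 deviation from the mean of all arrays, over the 2 such genes that were measured, was 4.15 and 3.90. It was at most 0.65 in the other mice.

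Type I interferons act through a receptor coupled to the kinases Jak1 and Tyk2. These kinases activate a transcription factor complex that holds Stat2 and Irf9 and binds the interferon-stimulated response element, ISRE, in the promoters of antiviral genes such as the Ifit, Oas and Mx families. Genes that interferon-gamma induces, such as Irf1, carry a different element, GAS. Irf1 in turn drives genes of antigen presentation, so the members differ in which interferon moves them most. Lymphocytes and macrophages within fat express many of these genes at rest, and in RNA from whole tissue fewer cells of a type and less RNA per cell cannot be told apart.

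Promoters of 5 members are shown as examples that hold the ISRE, GAS or neither element. The stretches are the 250 bases before the start of transcription in RefSeq on GRCm38.p6, written 5′ to 3′ on the strand of the gene, with matches to either element in capitals. The ISRE was searched as GAAANNGAAA and as TTTCNNTTTC, its reverse complement, and GAS as the palindrome TTCNNNGAA.
Ifit1 (chr19:34640639-34640888, strand plus): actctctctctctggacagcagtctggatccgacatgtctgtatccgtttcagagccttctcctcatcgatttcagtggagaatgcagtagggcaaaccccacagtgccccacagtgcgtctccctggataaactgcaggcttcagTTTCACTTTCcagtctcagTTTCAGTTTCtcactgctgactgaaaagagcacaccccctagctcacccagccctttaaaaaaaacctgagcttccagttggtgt
Ifit3 (chr19:34583279-34583528, strand plus): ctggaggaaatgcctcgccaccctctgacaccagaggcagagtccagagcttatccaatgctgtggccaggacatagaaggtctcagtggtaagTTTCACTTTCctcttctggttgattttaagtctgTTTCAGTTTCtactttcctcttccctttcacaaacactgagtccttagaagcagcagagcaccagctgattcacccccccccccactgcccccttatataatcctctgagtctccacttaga
Rsad2 (chr12:26456453-26456702, strand minus): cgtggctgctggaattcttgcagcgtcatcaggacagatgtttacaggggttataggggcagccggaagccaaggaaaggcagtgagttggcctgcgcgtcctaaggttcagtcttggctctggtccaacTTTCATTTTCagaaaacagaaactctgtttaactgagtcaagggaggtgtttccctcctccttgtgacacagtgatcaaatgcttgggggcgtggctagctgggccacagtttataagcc
Irf1 (chr11:53769764-53770013, strand plus): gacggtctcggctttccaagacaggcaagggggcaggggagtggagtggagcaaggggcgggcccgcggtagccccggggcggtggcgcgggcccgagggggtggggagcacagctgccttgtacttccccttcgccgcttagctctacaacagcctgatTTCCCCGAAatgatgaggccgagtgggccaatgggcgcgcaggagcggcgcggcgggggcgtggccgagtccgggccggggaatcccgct
Tap1 (chr17:34187306-34187555, strand plus): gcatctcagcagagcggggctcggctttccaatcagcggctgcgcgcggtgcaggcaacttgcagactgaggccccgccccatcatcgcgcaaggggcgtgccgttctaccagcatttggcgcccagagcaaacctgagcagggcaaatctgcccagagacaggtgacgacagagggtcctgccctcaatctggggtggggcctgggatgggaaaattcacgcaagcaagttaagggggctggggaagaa
Ifit1 and Ifit3 each held 2 ISRE matches in this stretch, Rsad2 held 1, Irf1 held 1 GAS match in 1 of its 2 promoter windows, and Tap1 held neither. The Tap1 window shares 275 bases with that of Psmb9, which is read from the other strand of the same interval, so the same stretch stands before both genes. Counted over the full window of 300 bases, 250 before and 50 after the start, 24 of the 32 members had a window. The ISRE occurred in 12 of these 24 and in 3.44% of all 32851 windows, and GAS in 7 of 24 (29.2%) and in 8.3% of all windows. The 2 elements overlapped in 1 window of a member, and 8 members with a window held neither. A match is a run of letters and not a measured binding site.

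Of the 32 genes, 28 exceeded an intensity of 100 in at least 5 of the 20 arrays and were tested among 19802 probe sets. Stat2, the partner of Irf9, was above 100 in 3 arrays, with a mean of 6.21 ± 0.18 (SD, n = 5) in control non pregnant, 6.50 ± 0.36 in HF non pregnant, 6.37 ± 0.30 among control pregnant and 6.36 ± 0.12 among HF pregnant mice. Mx2, a dynamin-like GTPase related to Mx1, was above 100 in 0 arrays and lay between 6.07 and 6.19 in the 4 group means. Isg15, the ubiquitin-like modifier, has a probe set that also names a second gene, and for Ifi44 the annotation used lists none, so neither was analysed here. Oasl1 passed through 10 arrays and Mx1 and Zbp1 through 13 each, and the other 25 tested members were above 100 in all 20.

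The interferons themselves were at the floor of the arrays. The list of ligands has 12 genes, 8 of them with a probe set, and 0 of the 8 passed the filter. Ifnb1, interferon-beta, lay between 4.42 and 5.10 on the log2 scale over the 20 mice, and Ifng, interferon-gamma, between 3.52 and 3.92.

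In 7 comparisons of the groups, limma called 0 of the 28 genes at an adjusted p under 0.05. The HF non pregnant mice had a median difference of 0.27 from control non pregnant mice over the 28 genes on the log2 scale, with 24 higher and 4 lower, against a median of 0.01 over all probe sets tested, 51.6% of which were higher. Called were 0% of all probe sets in that comparison, so the count of 0 says little about these genes. At an unadjusted p under 0.05 stood 4 members, Irf7, Parp14, Bst2 and Ifi35 (14.3%), against 17.7% of all probe sets. The members' share was thus no higher than that of the array as a whole.

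The other comparisons gave smaller differences. Between HF pregnant and control pregnant mice the median was 0.20, with 25 members higher and 3 lower, against 0.05 over all probe sets. Leaving out mouse 1 of the control pregnant group gave 0.09, leaving out its mouse 2 gave 0.32 and leaving out its mouse 4 gave 0.30. There, 0.192% of all probe sets were called. At an unadjusted p under 0.05 stood 1 member, Rsad2, against 12.8% of all. On the control diet, pregnant mice had a median of 0.12 against non pregnant mice, with 20 members higher and 8 lower, and of -0.03 without control pregnant mouse 2; 0% of all probe sets were called, and 0 members and 2.9% of all probe sets stood at an unadjusted p under 0.05. On the HF diet, pregnant mice had a median of -0.01 against non pregnant mice, with 13 members higher and 15 lower, and from -0.09 to 0.08 with 1 mouse left out; 0.0252% of all probe sets were called, and 1 member, again Rsad2, and 4.66% of all probe sets stood at an unadjusted p under 0.05. The interaction of diet and pregnancy had a median of -0.10, with 7 members higher and 21 lower, and of 0.04 without control pregnant mouse 2; 0% of all probe sets were called, and 0 members and 3.08% of all probe sets stood at an unadjusted p under 0.05. These comparisons share groups, so their values are not independent of each other.

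Averaged over pregnancy, HF mice had a median difference of 0.24 from control mice over the members, with 26 higher and 2 lower, against 0.04 over all probe sets. The 2 lower genes were Rtp4, a receptor chaperone, at -0.14 and Oasl2 at -0.01. Called were 1.24% of all probe sets and 0 members. The lowest adjusted p of a member was that of Parp14, 0.0937, with a difference of 0.49 (SE 0.16, limma). Ifi35 had 0.28 (SE 0.10, adjusted p = 0.104 by limma), and Oas1a, Irf1 and Ifit2 had 0.29, 0.36 and 0.26. These 5 members (17.9%) stood at an unadjusted p under 0.05, as did 29.6% of all probe sets. Averaged over diet, pregnant mice had a median of 0.07, with 23 members higher and 5 lower, and from 0.00 (control pregnant mouse 2 left out) to 0.12 with 1 mouse left out; 0.0101% of all probe sets were called, and 0 members and 4.59% of all probe sets stood at an unadjusted p under 0.05.

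**Figure D1:**
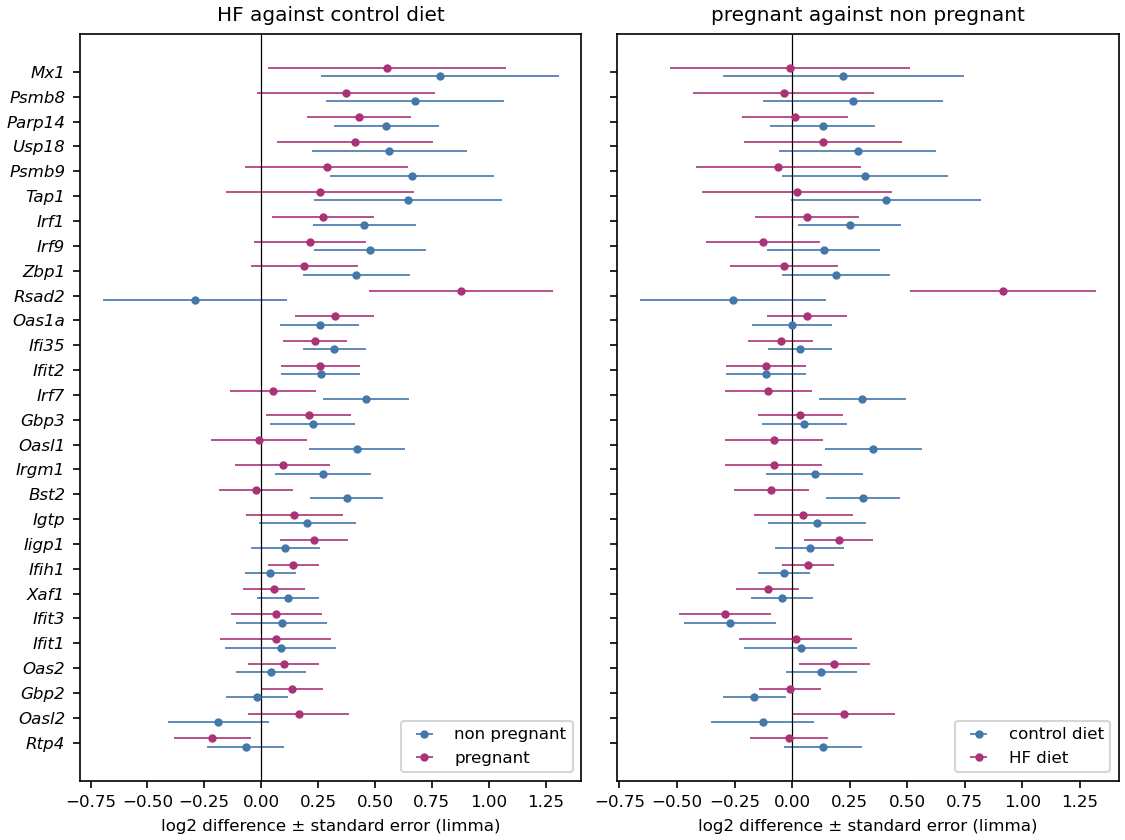
Difference in log2 intensity ± standard error from limma for the 28 tested genes, HF against control diet (left; blue, non pregnant; purple, pregnant) and pregnant against non pregnant (right; blue, control diet; purple, HF diet), ordered by the diet difference averaged over pregnancy. Most genes lie right of 0 in the left panel, 24 of 28 in non pregnant and 25 of 28 in pregnant mice, with Rsad2 the widest apart between its 2 points at -0.29 and 0.88.

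Of the transcription factors, Irf7, which amplifies the type I response, had 7.5, 7.53, 7.48, 7.18 and 7.70 in the control non pregnant mice and 8.40, 7.53, 7.91, 7.47 and 8.37 in the HF non pregnant mice. It had 7.71, 8.26, 7.41, 7.84 and 7.70 among control pregnant and 8.04, 7.82, 7.85, 8.0 and 7.46 among HF pregnant mice. HF non pregnant mice 1, 3 and 5 were above all control non pregnant mice, mice 2 and 4 were within their range, and the pregnant groups overlapped throughout. The difference was 0.46 (SE 0.19, adjusted p = 0.281 by limma) in non pregnant and 0.05 (SE 0.19, adjusted p = 0.889) in pregnant mice, and the difference between the 2 did not pass (-0.41, SE 0.27, adjusted p = 0.933).

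Irf1, a factor induced by interferon-gamma, had 9.69, 9.41, 9.58, 9.73 and 9.89 in control non pregnant and 10.36, 9.59, 10.03, 10.03 and 10.55 in HF non pregnant mice. It had 9.43, 10.59, 9.46, 10.31 and 9.75 among control pregnant and 10.31, 10.38, 10.42, 10.21 and 9.58 among HF pregnant mice. HF non pregnant mouse 2 was the only one of its group within the control non pregnant range, and the pregnant groups overlapped. The HF non pregnant mice stood 0.45 above control non pregnant mice (SE 0.23, adjusted p = 0.281 by limma). Irf9, the DNA-binding part of the type I complex, had 7.63, 8.34, 8.02, 7.84 and 8.26 in control non pregnant and 8.82, 8.21, 8.48, 7.84 and 9.12 in HF non pregnant mice. It had 7.64, 8.81, 7.68, 8.59 and 8.05 among control pregnant and 8.47, 8.35, 8.39, 8.62 and 8.02 among HF pregnant mice. Its high mice were those of Irf1 and Irf7 in the HF non pregnant group, mice 1 and 5, and the difference there was 0.48 (SE 0.25, adjusted p = 0.282 by limma).

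Of the antiviral effectors, Parp14, an ADP-ribosyltransferase, had 8.91, 9.06, 8.50, 8.81 and 8.99 in control non pregnant and 9.75, 9.00, 9.46, 9.10 and 9.72 in HF non pregnant mice. It had 8.38, 9.76, 8.51, 9.35 and 8.95 among control pregnant and 9.59, 9.34, 9.56, 9.65 and 8.95 among HF pregnant mice. HF non pregnant mouse 2 was the only one of its group within the control non pregnant range, and in pregnancy control mice 2, 4 and 5 reached the HF range. The difference was 0.55 (SE 0.23, adjusted p = 0.281 by limma) in non pregnant and 0.43 (SE 0.23, adjusted p = 0.433) in pregnant mice.

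Bst2, the tetherin that holds budding virus at the cell surface, had 8.46, 8.76, 9.04, 8.70 and 9.16 in control non pregnant and 9.44, 8.95, 9.15, 8.92 and 9.54 in HF non pregnant mice. It had 9.01, 9.39, 9.03, 9.37 and 8.87 among control pregnant and 9.10, 9.02, 9.26, 9.42 and 8.75 among HF pregnant mice. The non pregnant groups overlapped in 3 HF mice, 2, 3 and 4, and the pregnant groups overlapped throughout. The difference was 0.38 (SE 0.16, adjusted p = 0.281 by limma) in non pregnant and -0.02 (SE 0.16, adjusted p = 0.944) in pregnant mice.

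Ifi35, a leucine zipper protein of the interferon response, had 10.57, 10.84, 10.49, 10.57 and 10.66 in control non pregnant and 11.14, 10.83, 10.99, 10.65 and 11.14 in HF non pregnant mice. It had 10.32, 11.09, 10.45, 10.91 and 10.54 among control pregnant and 10.99, 10.83, 10.92, 11.12 and 10.64 among HF pregnant mice. HF non pregnant mice 1, 3 and 5 were again above the control range. The difference was 0.32 (SE 0.14, adjusted p = 0.281 by limma) by this probe set and 0.17 to 0.32 over the 3 probe sets of the gene.

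Rsad2, the radical SAM enzyme viperin, had 9.39, 9.65, 11.20, 8.71 and 9.10 in control non pregnant and 9.50, 9.55, 9.27, 9.46 and 8.81 in HF non pregnant mice. It had 9.72, 9.38, 9.55, 8.84 and 9.28 among control pregnant and 9.81, 10.30, 10.05, 9.38 and 11.63 among HF pregnant mice. HF pregnant mouse 5 and control non pregnant mouse 3 stood above the rest of their groups, which lay between 9.38 and 10.30 and between 8.71 and 9.65, and the groups overlapped. HF pregnant mice differed from HF non pregnant mice by 0.91 (SE 0.40, adjusted p = 1 by limma) and by 0.83 to 0.91 over the 3 probe sets. They differed from control pregnant mice by 0.88 (SE 0.40, adjusted p = 0.372). Without HF pregnant mouse 5 the first difference was 0.57. The interaction of diet and pregnancy was 1.17 (SE 0.57, adjusted p = 0.933).

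The catalytic members of the 2-5A synthetase family make the signal that activates RNase L. Oasl1, a member that makes no such signal, had 6.29, 6.55, 6.44, 6.34 and 6.73 in control non pregnant and 7.51, 6.48, 6.54, 6.44 and 7.49 in HF non pregnant mice. It had 6.63, 7.32, 6.56, 6.73 and 6.88 among control pregnant and 6.84, 6.67, 6.93, 7.14 and 6.50 among HF pregnant mice. Its difference of 0.42 between the non pregnant groups (SE 0.21, adjusted p = 0.281 by limma) went with high values in HF mice 1 and 5, the other 3 lying within the control range. Oas1a and Oas2, which make 2-5A, differed by 0.26 and 0.04 and Oasl2 by -0.19 in that comparison, with adjusted p values of 0.343, 0.858 and 0.576.

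The remaining members had none at an unadjusted p under 0.05 in a comparison of 2 groups. The 3 Ifit genes, of a family that binds viral RNA, differed by 0.09 (Ifit1), 0.26 (Ifit2) and 0.09 (Ifit3) between the non pregnant groups and by 0.06, 0.26 and 0.07 between the pregnant groups. The antigen processing genes had the larger differences with the wider errors: Psmb8 and Psmb9, subunits of the immunoproteasome, differed by 0.68 (SE 0.39) and 0.66 (SE 0.36), and Tap1, the transporter that moves peptides to class I molecules, by 0.65 (SE 0.41) between the non pregnant groups. Mx1, an antiviral GTPase whose gene is defective in C57BL/6J, differed by 0.79 (SE 0.52), and Usp18, the protease that removes Isg15 from proteins, by 0.56 (SE 0.34). The interferon-inducible GTPases Gbp2, Gbp3, Irgm1, Igtp and Iigp1 differed by -0.02 to 0.27. Of the nucleic acid sensors, Zbp1 differed by 0.42 (SE 0.23) and Ifih1, which detects double-stranded RNA, by 0.04 (SE 0.11). Xaf1, a proapoptotic factor, differed by 0.12 and Rtp4 by -0.07. No member had groups that did not overlap in any of the 4 comparisons of 2 groups, where 2.19% of all probe sets were apart between the diets in non pregnant mice, 3.51% between the diets in pregnant mice, 0.217% between pregnant and non pregnant mice on the control diet and 1.53% on the HF diet.

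The mice within a group differed more in these genes than in most. The median SD within groups was 0.35 for the members and 0.23 for all probe sets tested, and 24 of the 28 members were above the latter. Mx1 spanned 3.05 on the log2 scale over the 20 mice, an 8.26-fold range, Rsad2 2.92, Psmb8 2.29 and Tap1 2.11, whereas Ifih1 spanned 0.67 and Xaf1 0.71. The median deviation of the 28 genes from their means was highest in control pregnant mouse 2 (0.42), HF non pregnant mouse 1 (0.41), HF non pregnant mouse 5 (0.36) and HF pregnant mouse 4 (0.34), and lowest in control pregnant mouse 1 (-0.50). The high mice thus came from 3 groups.

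Markers of B and T cells varied in the same mice. Of 31 listed, 26 were measured, and their summed intensity in non pregnant mice ran from 3195 to 14709 on the control and from 6887 to 39210 on the HF diet, and in pregnant mice from 2882 to 27013 on the control and from 3624 to 19445 on the HF diet. Their mean log2 deviation per mouse was -1.81, -1.80, 0.03, -0.36 and 0.61 in control non pregnant, 1.37, -0.59, 0.39, 0.06 and 1.88 in HF non pregnant, -2.25, 1.46, -1.25, 1.05 and -0.20 among control pregnant, and 0.78, 0.62, 0.95, 0.90 and -1.84 in HF pregnant mice. Between the non pregnant groups the 26 markers had a median difference of 1.45, with 26 of 26 higher in HF mice, so they moved with the member differences given above. Of the markers not measured, Pax5 and Trat1 had a probe set under the filter.

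Each gene was therefore fitted against this marker mean within groups, a slope that does not use the group means. A slope of 1 says that a gene doubles when the markers double. The slope was called positive for 17 of the 28 members (60.7%), against 29.5% of all probe sets, and negative for 2 (7.14%), against 29.8%; 9 members were not called. In either direction the share was 67.9% of the members and 59.3% of all probe sets.

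**Figure D2:**
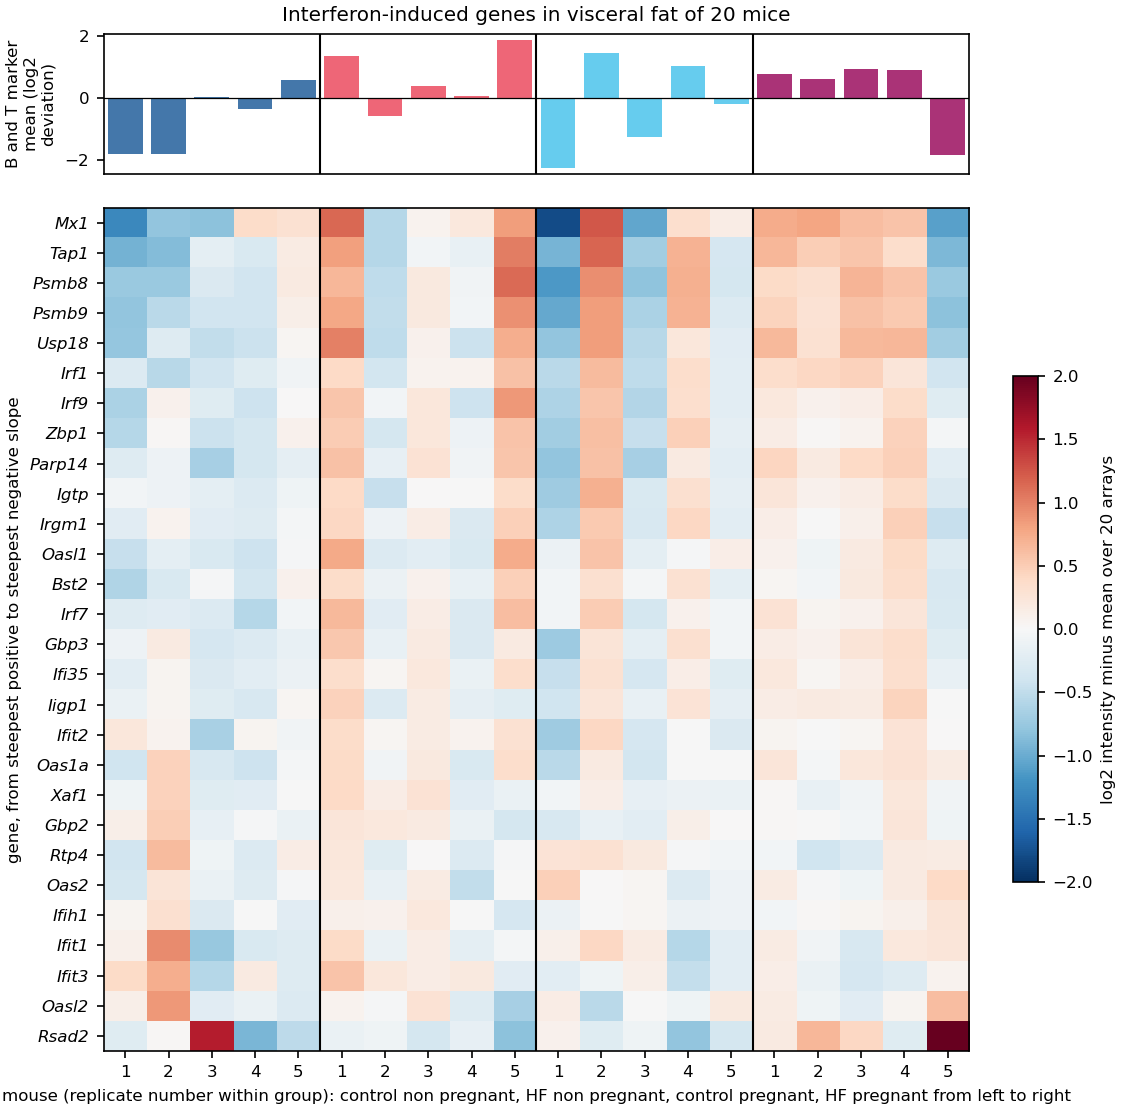
Colour gives the log2 intensity of each of the 28 genes in each of the 20 mice as a deviation from the gene's mean over all arrays, and bars above give the mean log2 deviation of 26 B and T cell markers in the same mice, by group from left to right. Genes of the upper rows, Mx1, Tap1, Psmb8, Psmb9 and Usp18, run with the bars, while Ifit1, Ifit3, Oasl2 and Rsad2 at the bottom do not.

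The steepest slopes belonged to antigen processing, Mx1 and Usp18. Mx1 had 0.65 (SE 0.07, adjusted p = 5.84e-07 by limma), Tap1 0.55 (SE 0.04, adjusted p = 5.93e-10), Psmb8 0.52 (SE 0.04, adjusted p = 1.07e-09), Psmb9 0.47 (SE 0.04, adjusted p = 3.71e-09) and Usp18 0.41 (SE 0.05, adjusted p = 7.48e-06). With intensities under 100 set to 100 the slope of Mx1 was 0.35, below the lowest values of Tap1 (0.52), Psmb8 (0.49) and Psmb9 (0.44) in any alternative. Tap1 had 8.01, 8.09, 8.77, 8.66 and 9.13 in control non pregnant, 9.78, 8.39, 8.91, 8.82 and 9.99 in HF non pregnant, 8.04, 10.13, 8.26, 9.66 and 8.62 among control pregnant and 9.63, 9.46, 9.52, 9.32 and 8.06 among HF pregnant mice. Its 4 lowest mice, control non pregnant 1 and 2, control pregnant 1 and HF pregnant 5, are the 4 with the lowest marker means. Psmb9 had 8.97, 9.22, 9.38, 9.37 and 9.88 in control non pregnant, 10.53, 9.27, 9.95, 9.71 and 10.67 in HF non pregnant, 8.73, 10.60, 9.13, 10.45 and 9.48 among control pregnant and 10.20, 10.05, 10.34, 10.28 and 8.94 among HF pregnant mice. Its highest mice, HF non pregnant 5, control pregnant 2 and HF non pregnant 1, were the 3 with the highest marker means, in both a control and an HF group.

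Shallower slopes were called for 12 further genes. Of the transcription factors, Irf1 had 0.28 (SE 0.03), Irf9 0.26 (SE 0.05) and Irf7 0.17 (SE 0.05). The sensor Zbp1 had 0.24, and of the GTPases Igtp and Irgm1 had 0.23 each, Gbp3 0.16 and Iigp1 0.11. Parp14 had 0.24, Oasl1 0.20, Bst2 0.17 and Ifi35 0.13. With the macrophage marker mean in the same fit, Irf9, Zbp1, Irgm1, Gbp3, Iigp1, Parp14 and Ifi35 were no longer called, and Gbp3 and Iigp1 had slopes of 0.00 and -0.02. Of the 8 members with the smallest unadjusted p in a comparison of 2 groups, all but Rsad2 are among the genes with a called positive slope.

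The 3 Ifit genes and Rsad2 were among the 9 members without a called slope. Ifit1 had a slope of -0.11 (SE 0.08, adjusted p = 0.216 by limma), Ifit2 0.10 (SE 0.05, adjusted p = 0.113) and Ifit3 -0.13 (SE 0.06, adjusted p = 0.0513). Rsad2 had -0.24 (SE 0.12, adjusted p = 0.084), -0.31 (adjusted p = 0.00161) without control non pregnant mouse 3 and -0.12 without HF pregnant mouse 5. The slope of Ifit3 passed without HF non pregnant mouse 1, control pregnant mouse 1, control pregnant mouse 2 or HF pregnant mouse 1, at -0.17 to -0.14, where adjusted p over all alternatives ran from 0.0195 to 0.243 for Ifit3 and from 0.00161 to 0.623 for Rsad2. Of the others not called, Oas1a, Oas2, Xaf1, Rtp4 and Gbp2 had 0.09, -0.07, 0.00, -0.02 and -0.02. The 2 negative slopes that passed were those of Oasl2, -0.21 (SE 0.05, adjusted p = 0.00274), and Ifih1, -0.08 (SE 0.03, adjusted p = 0.038).

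Oasl2 had 7.72, 8.47, 7.37, 7.46 and 7.33 in control non pregnant, 7.67, 7.57, 7.89, 7.35 and 6.93 in HF non pregnant, 7.75, 7.06, 7.59, 7.52 and 7.79 among control pregnant and 7.77, 7.52, 7.38, 7.65 and 8.22 among HF pregnant mice. Ifit3 had 8.93, 9.27, 7.98, 8.72 and 8.29 in control non pregnant, 9.12, 8.77, 8.69, 8.74 and 8.32 in HF non pregnant, 8.33, 8.46, 8.66, 8.07 and 8.33 among control pregnant and 8.67, 8.41, 8.20, 8.28 and 8.62 among HF pregnant mice. Control non pregnant mouse 2, with a marker mean of -1.80, was the highest of all 20 mice for Ifit1 (8.41), Ifit3 and Oasl2. HF pregnant mouse 5, with a marker mean of -1.84, was the highest for Rsad2 and the lowest of its group for Irf1, Mx1, Usp18 and the 3 antigen processing genes.

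**Figure D3:**
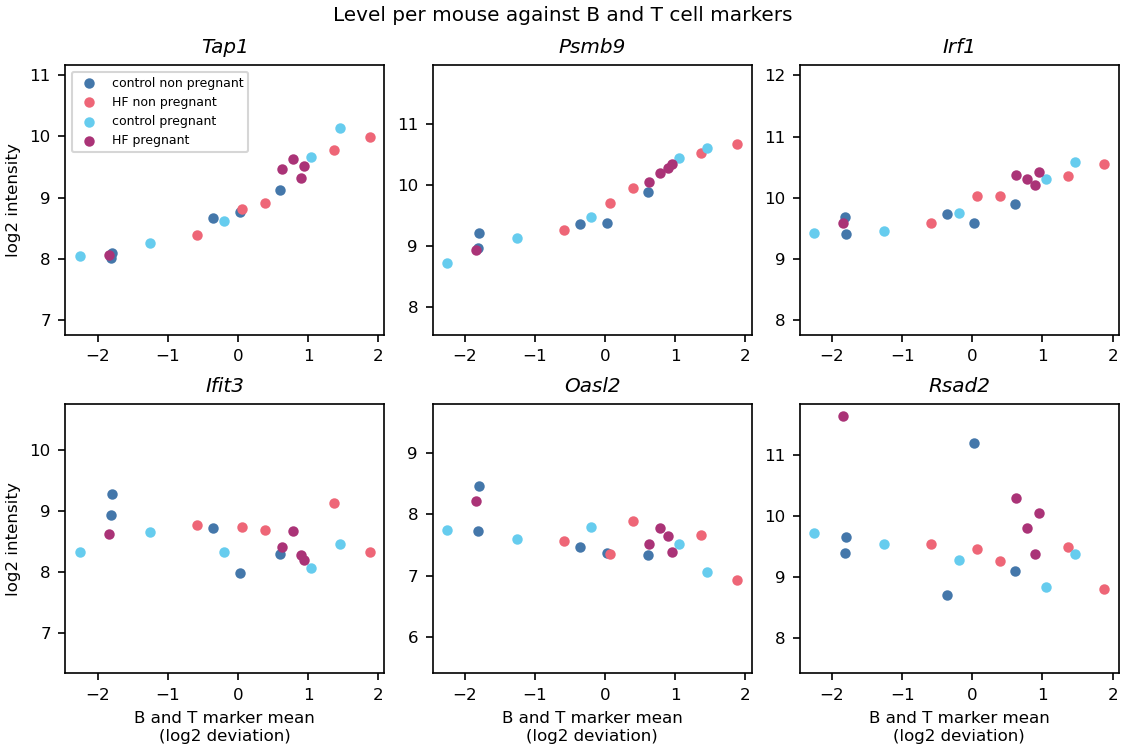
Log2 intensity of 6 genes (vertical axis, 1 panel each) against the mean log2 deviation of 26 B and T cell markers (horizontal axis), 1 point per mouse, coloured by group. Tap1, Psmb9 and Irf1 are higher in mice further along the axis, whereas Ifit3, Oasl2 and Rsad2 do not, and for Rsad2 the points at 11.63 and 11.20 stand apart.

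**Figure D4:**
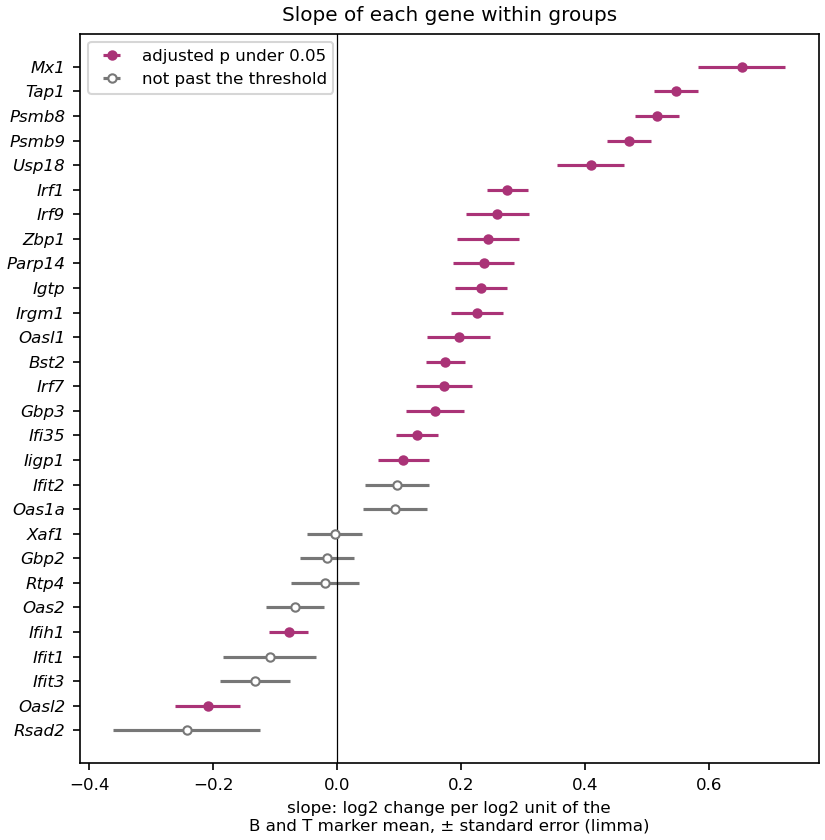
Slope of each of the 28 genes on the B and T cell marker mean within groups, as log2 change per log2 unit, ± standard error from limma; filled points have an adjusted p under 0.05. The slopes run from 0.65 for Mx1 to -0.24 for Rsad2, with 17 filled points right of 0 and 2 left of it; that of Mx1 was 0.35 with intensities under 100 set to 100.

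Set beside the promoters shown above, Tap1 and Psmb9, without either element in their shared window, were among the steepest, and Ifit1, Ifit3 and Rsad2, with the ISRE, were not called. The 5 promoters shown are examples, and the elements do not define the groups by slope. Over the 21 tested members with a window, 10 held the ISRE, of which 4 had a positive slope (Bst2, Gbp3, Irgm1 and Igtp), 1 a negative slope and 5 none that passed. Of the 11 without it, 8 had a positive slope, 1 a negative slope (Oasl2) and 2 none that passed (Ifit2 and Xaf1). These counts are a description of few genes and were not tested.

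With the B and T cell marker mean in the fit as a covariate, the median difference of the members between HF and control non pregnant mice was 0.10, with 22 higher and 6 lower, where it was 0.27 without it. Between the pregnant groups it was 0.13, with 22 higher and 6 lower, and -0.04 with the macrophage marker mean as the covariate instead. With the B and T cell mean, Parp14 stood at 0.25 (SE 0.17) and Irf7 at 0.24 (SE 0.15) between the non pregnant groups, and Irf1 at 0.10 (SE 0.11). Ifi35 stood at 0.16 (SE 0.11) between the non pregnant and at 0.17 (SE 0.10) between the pregnant groups. Rsad2 stood at 1.01 (SE 0.37, adjusted p = 0.182 by limma) between the pregnant groups, where it was 0.88 without the covariate. With the B and T cell mean as the covariate 0 members were called in all 7 comparisons. In those comparisons 0% to 0.656% of all probe sets were called, so the count of 0 says little about these genes. The slope on the B and T cell mean was called for 59.3% of all probe sets, so this fit cannot tell lymphocytes from other changes in the tissue. The part of lymphocytes in the differences of diet was not tested.

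Markers of macrophages, 19 of 20 measured, had a summed intensity in non pregnant mice of 18531 to 29422 on the control and 24520 to 39102 on the HF diet, and in pregnant mice of 13197 to 39769 on the control and 25084 to 43798 on the HF diet. The slope on their mean was called for 16 members, each positive (22.1% of all probe sets had a positive and 15.5% a negative slope, 37.6% in all). In a fit that holds both means, 0 members had a called slope on the macrophage mean (0.389% of all probe sets), and 10 had a positive and 3 a negative slope on the B and T cell mean (35.3% of all probe sets in either direction). Of the 19 macrophage markers themselves, 12 had a positive and 2 a negative slope on the B and T cell mean. The shares over all probe sets were 29.5% and 29.8%. Adipocyte markers had their lowest mean deviation in HF non pregnant mouse 5 (-0.90), the mouse with the highest B and T cell mean.

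The other genes of the pathway were taken from lists by role, and 0 of their members were called in any of the 7 comparisons. Of all probe sets, 0% to 1.24% were called there. Averaged over pregnancy, the difference between HF and control mice had a median of 0.17 over the 8 measured receptors and kinases of interferon, 0.22 over 14 genes of nucleic acid sensing, 0.23 over 10 feedback inhibitors, 0.31 over 36 further interferon-induced genes, 0.56 over 10 genes of the interferon-gamma axis and 0.15 over 12 genes of class I presentation, against 0.04 over all probe sets. On the B and T cell mean, positive and negative slopes were called for 6 and 0 of the receptors and kinases, 11 and 1 of the sensing genes, 7 and 1 of the feedback inhibitors, 21 and 3 of the further interferon-induced genes, 7 and 0 of the interferon-gamma axis and 6 and 0 of class I presentation. Over all probe sets, 29.5% had a positive and 29.8% a negative slope on that mean. The steepest of each list, picked after their values were seen, were in the order of the lists Jak1 at 0.36, Tmem173 at 0.56, Ptpn6 at 0.54, Epsti1 at 1.15, Irf8 at 0.97 and Nlrc5 at 0.42. Jak1 is a kinase of the interferon receptors, Tmem173 the adaptor STING, Ptpn6 a phosphatase that dampens signalling, Irf8 a factor of B cells and myeloid cells, and Nlrc5 the regulator of class I genes.

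Array weights raised the members called for diet. With each array weighted by how well it fitted its group, 17 members (60.7%) and 37.8% of all probe sets were called between HF and control non pregnant mice, and 20 members (71.4%) and 46.1% of all probe sets for diet averaged over pregnancy, all of these members higher in HF mice. In that fit HF non pregnant mouse 3 had a weight of 11.34 and the other mice of its group 0.24 to 0.80. For diet averaged over pregnancy, 4 members (Ifit2, Irf1, Ifi35 and Parp14; 14.3%) were called without control pregnant mouse 2, as were 21.8% of all probe sets. In the same comparison Ifi35 and Parp14 (7.14% of the members) and 10.2% of all probe sets were called without the 2 control arrays high in pancreatic acinar genes, control pregnant mouse 2 and control non pregnant mouse 4.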

How the data were processed

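RNA of visceral fat from 20 mice, 5 in each of 4 groups, was hybridized to Affymetrix Mouse Genome 430 2.0 arrays. The authors normalized the scans by RMA with the affy package under R 2.8.0, per the labels. The deposited table holds linear intensity for 45101 probe sets, and its log2 was taken here without further scaling. RMA gives all arrays 1 distribution, so a change shared by most genes is not seen. Depth does not apply to arrays; the number of mice limits precision. Groups follow the labels, which name no scan batch. The methods take the mice from different litters and mothers. The labels name Trizol and the methods another kit for RNA extraction.

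Control probe sets (64) were left out, and probe sets above 100 in at least 5 of 20 arrays were kept (19802, 43.91%). Symbols came from the platform annotation, updated through Entrez identifiers with RefSeq on GRCm38.p6, which also gave the promoters: 34958 probe sets carry 1 symbol, 932 several and 9211 none. Of the 32 members, 24 matched a promoter window. Group means, contrasts and slopes were fitted with limma 3.58.1 in R 4.3.3 over all kept probe sets, with p-values adjusted by Benjamini-Hochberg and a threshold of 0.05. The procedure was tested on simulated data. Members and lists were chosen with earlier results of these data known. Values of all mice are given for the 8 members with the smallest unadjusted p in a comparison of 2 groups, since none was called; Tap1, Psmb9, Oasl2, Ifit3 and the genes named for slopes were picked after their values were seen. The alternatives were other filters, scalings, moderation, array weights, covariates, a replicate block and each mouse left out. The rank product named in the methods was not run.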

Additional observations from a re-analysis of the deposited data

Results flagged for a closer look

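In groups of 5 mice, the gap between the highest or lowest mouse and its neighbour was large against the range of the group (Dixon's ratio, 95% level) in 8 of 120 pairs of a gene and a group, where chance flags about 1 in 20, or 6. HF pregnant mouse 5 was the lowest of its group in 6 of them, on the log2 scale: Irf1 at 9.58, Mx1 at 5.82, Usp18 at 7.0, Psmb8 at 9.56, Psmb9 at 8.94 and Tap1 at 8.06. The B and T cell marker mean of this mouse was -1.84 and those of the other 4 were 0.62 to 0.95. Ifit2 was high in HF pregnant mouse 4 at 8.42. Stat2, under the expression filter, was high in control pregnant mouse 2 at 6.90. What set these mice apart was not tested.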

How the results depend on the processing

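The median differences of the members moved by less than the SD between mice of a group, 0.26, but most changed sign under some alternative. Diet in non pregnant mice (0.10 to 0.37) and diet averaged over pregnancy (0.02 to 0.31) stayed above 0 in those run. Diet in pregnant mice ranged from -0.04, with the macrophage mean as a covariate, to 0.32, pregnancy on the control diet from -0.05, without the 2 arrays high in pancreatic genes, to 0.23, pregnancy on the HF diet from -0.14 to 0.08, the interaction from -0.20 to 0.04 and pregnancy averaged over diet from -0.07 to 0.12. With array weights, members called became 17 for HF against control in non pregnant mice, 1 (Parp14; 3.57%, against 6.89% of all probe sets) in pregnant mice, 20 for diet averaged over pregnancy, 1 (Oasl1; 3.57%, against 8.62% of all probe sets) for pregnancy averaged over diet, and 6 instead of 16 for the slope on the macrophage mean. In the main fit 37.6% of all probe sets were called for that slope, and the share under array weights is not given here. The slope on the macrophage mean was called for 0 members (0.389% of all probe sets) with the B and T cell mean in the same fit. Its standard errors were wider there than those of the B and T cell slope, and that fit was chosen after the data were seen. With a 1.5-fold change and an unadjusted p under 0.05 as the call, 1 member (Rsad2) passed for HF against control in pregnant mice and 1 (Rsad2) for pregnancy on the HF diet. The shares of all probe sets under that call are not given here, so these counts cannot be set against the whole array. Diet averaged over pregnancy gave 2 without the 2 arrays high in pancreatic genes and 0 to 4 with each mouse left out, 4 coming without control pregnant mouse 2. The cause of these changes was not tested. Slopes on the B and T cell mean were called for 13 to 20 members over the alternatives, 17 to 20 with each mouse left out, and 18 without the 2 mice farthest from the median marker mean, also chosen later. Of all probe sets, 59.3% were called in the main fit, 53.2% without those 2 mice and 35.3% with both means in the fit. Shares in the other alternatives are not given here. The slope of Ifit3 passed in 8 of 32 alternatives (-0.21 to -0.10 over all 32). The labels number the replicates without saying that the numbers pair mice. Of 30 same-numbered pairs, 10 had deviations correlated over 0.1, with a range of -0.75 to 0.67. Pairs with unlike numbers were not compared, so these values cannot decide whether the mice are paired. With a replicate block, 0 members were called in each of the 7 comparisons. The shares of all probe sets in that fit are not given here. Probe sets called over all genes ranged from 0 to 7489 for HF against control in non pregnant mice, 15 to 1365 in pregnant mice, 0 to 96 for pregnancy on the control diet, 0 to 2679 on the HF diet, 0 to 177 for the interaction, 3 to 9136 for diet and 0 to 1706 for pregnancy.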
